A study of Homo sapiens with 12 samples.

Results

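The 10 genes described here encode chaperones, folding enzymes and regulators of the unfolded protein response (UPR) of the endoplasmic reticulum (ER): HSPA5, HSP90B1, CALR, PDIA4, DNAJB9, DNAJC3, SDF2L1, CRELD2, HERPUD1 and XBP1. They were chosen by symbol, and their transcripts were summed per symbol in the deposited count table. All 10 of the 10 passed the filter on low counts, among 16538 genes tested of 24559 gene symbols. The study sequenced polysome-associated RNA, that is mRNA bound by several ribosomes and collected from sucrose gradients after cycloheximide, from 3 established human triple-negative breast cancer (TNBC) lines. It asked how TRMT112, the activating partner of several RNA and protein methyltransferases, alters the mRNAs on polysomes. In MDA-MB-231 and SUM159, TRMT112 was knocked down by shRNA (KD) and set against control vector cells (EV). In BT549 it was overexpressed from a plasmid (OE), again beside a vector control (EV). According to the methods, cells with the shRNA were selected with puromycin and those with the plasmid with G418. They also describe the culture media as free of antibiotics. The control of the shRNA lines was a non-silencing shRNA in the same vector. SUM159 medium held insulin and hydrocortisone in addition to serum, MDA-MB-231 medium was the same base without them, and BT549 was grown in another medium with more serum, so line and medium cannot be told apart. Each of the 6 groups had 2 libraries, 12 in all, and nothing in the labels says that these came from separate cultures, so p-values measure the spread between these libraries only.

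The ER folds secreted and membrane proteins with the help of chaperones. When unfolded proteins accumulate, HSPA5 (BiP) leaves the sensors IRE1, PERK and ATF6. IRE1 then splices the XBP1 mRNA into the form that codes for the active factor, ATF6 is cleaved to a transcription factor, and PERK phosphorylates eIF2α, which lowers general translation while favouring ATF4. ATF6 and spliced XBP1 raise chaperones and degradation genes through ER stress response elements in their promoters, whereas ATF4 and DDIT3 (CHOP) act on amino acid metabolism, redox and cell death genes. Secretory cells and many tumour cells use these arms at a basal level.

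The promoter sequences are shown because this element is what the genes have in common in textbooks of the response. RefSeq promoter windows (GRCh38.p14, 250 bases before to 50 bases after the start site) were matched for all 10 genes, in 12 windows. The ER stress response element (ERSE) was searched as CCAAT, any 9 bases and CCACG, on both strands. It was present in 5 of the 10 genes and in 0.0769% of 35116 promoter windows of the same length. The shorter ERSE-II, ATTGG, 1 base and CCACG, whose first letters are a CCAAT on the other strand, was present in 2 of the 10 and in 0.0541% of windows. CCAAT alone was found in all 10 genes, against 34.6% of windows, and the UPR element TGACGTGG in 0 of the 10, against 0.729%. No ERSE or ERSE-II with these letters lay in the windows of DNAJB9, DNAJC3 or PDIA4. In the stretches below, read 5′ to 3′ on the strand of the gene, the fixed letters of each ERSE and the whole ERSE-II are in capitals, and an element on the other strand reads as its reverse complement.
HSPA5, ERSE, chr9:125241371-125241429, minus strand: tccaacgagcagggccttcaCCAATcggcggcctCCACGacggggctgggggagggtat
HSP90B1, an ERSE on each strand, chr12:103930196-103930359, plus strand: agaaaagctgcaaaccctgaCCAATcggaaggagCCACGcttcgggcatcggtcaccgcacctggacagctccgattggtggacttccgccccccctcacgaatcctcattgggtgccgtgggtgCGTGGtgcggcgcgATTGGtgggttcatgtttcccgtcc
CALR, ERSE, chr19:12938364-12938422, plus strand: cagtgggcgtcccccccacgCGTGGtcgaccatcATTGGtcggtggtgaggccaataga
CRELD2, ERSE, chr22:49918534-49918592, plus strand: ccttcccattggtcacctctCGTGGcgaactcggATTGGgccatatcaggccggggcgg
XBP1, ERSE, chr22:28800583-28800641, minus strand: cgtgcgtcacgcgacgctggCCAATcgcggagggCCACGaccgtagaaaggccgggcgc
SDF2L1, ERSE-II, chr22:21642094-21642144, plus strand: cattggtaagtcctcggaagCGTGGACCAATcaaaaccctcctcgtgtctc
HERPUD1, ERSE-II, chr16:56932005-56932055, plus strand: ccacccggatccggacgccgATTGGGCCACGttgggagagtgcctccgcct
The XBP1 mRNA is also shown, for the 26 bases that IRE1 removes, which mark activity of that arm. As placed here, they lie in XBP1-201 at chr22:28796128-28796153 (GRCh38, minus strand), in an exon of the coding part, and are in capitals with 15 bases on each side. The capitals open with G, and the base after them is also G. A stretch shifted downstream by that base leaves the same spliced mRNA, so these capitals do not fix the cut of IRE1 to the base.
XBP1: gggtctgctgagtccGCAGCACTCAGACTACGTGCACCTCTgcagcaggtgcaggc

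Library totals lay between 22954226 and 27434677 expected counts, and every pair of replicate libraries differed by more than counting noise. TRMT112 itself, in counts scaled to TMM library size (CPM), fell from 173.4 and 164.7 to 73.8 and 70.4 CPM on knockdown in MDA-MB-231. The SUM159 controls had 264.9 and 274.6 CPM against 163.5 and 154.7 after knockdown, and BT549 rose from 128.6 and 129.1 to 179.3 and 180.7 CPM, so all 3 contrasts followed their labels. The mesenchymal marker VIM was high in every library, PGR had at most 9 counts, ERBB2 had means from 59.1 to 140.5 CPM, and KRT8 and KRT18, abundant in MDA-MB-231 and SUM159, had at most 16 counts in BT549. The epithelial markers EPCAM and CDH1 were low in all 3 lines. EPCAM had control means of 2.96 CPM in MDA-MB-231, 0.105 in SUM159 and 0.0232 in BT549. CDH1 had control means of 0.0764, 0.0 and 2.39 CPM in the same order, and 0.868 CPM in BT549 OE. Counts of the leukocyte and endothelial markers PTPRC and PECAM1 together were between 5 and 26 per library outside SUM159 KD, where they were 94 and 135. Most of these were PECAM1, with 88 and 119 counts in SUM159 KD and 24 and 25 in SUM159 EV. PTPRC had 6 and 16 counts in SUM159 KD and 1 in each SUM159 EV library. VIM fell in BT549 OE, from a mean of 1983 CPM to 716.7 CPM, as did ERBB2, from 140.5 to 71.4 CPM, whereas the keratins moved apart in SUM159 KD, KRT8 up from 206.1 to 356.6 CPM and KRT18 down from 206.3 to 188.8 CPM. The part of these shifts in the results below was not tested. Total RNA was not analysed here, so the amount of an mRNA and its loading with ribosomes cannot be told apart, nor can fewer cells of a kind and less RNA per cell. CPM are relative to the other mRNAs of a library, and so are higher and lower below. The paper reports smaller polysome peaks after knockdown in MDA-MB-231 and SUM159, and larger ones in BT549 OE. The absolute amount of an mRNA on polysomes cannot be read from these values.

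The control libraries came first, since they set the level from which each line started. Per length, in length-scaled values (TPM) computed from the expected counts and annotated transcript lengths, CALR, the calcium-binding lectin chaperone calreticulin, was the most abundant member in all 3 EV groups. Its mean level was 735.1 ± 4.85 TPM in MDA-MB-231, 769.6 ± 6.25 in SUM159 and 3146 ± 37.1 in BT549 (SD, n = 2). DNAJB9 and DNAJC3, co-chaperones with a J domain, were the least abundant in each line, with 23.4 ± 1.94 and 23.9 ± 0.459 TPM in MDA-MB-231, 15.1 ± 2.83 and 13.3 ± 0.93 in SUM159, and 21.0 ± 4.13 and 30.0 ± 0.993 in BT549. These 2 did not differ beyond their spread in MDA-MB-231 or SUM159. On the CPM scale, the 10 genes summed to 1524 and 1518 in MDA-MB-231 EV, 2001 and 1980 in SUM159 EV, and 5327 and 5224 in BT549 EV. CALR made up 72.0% of that sum in BT549 EV and 44.4% and 40.8% in MDA-MB-231 and SUM159.

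Differences between the lines were large and did not run one way. By edgeR's quasi-likelihood test, with p-values adjusted by Benjamini-Hochberg over all genes, MDA-MB-231 EV and SUM159 EV differed for 10 of the 10 genes (75.7% of all genes), BT549 EV and MDA-MB-231 EV for 9 (79.5%), and BT549 EV and SUM159 EV for 10 (78.4%). Against MDA-MB-231, BT549 had more CALR (log2 difference 2.49, SE 0.02), SDF2L1 (1.73, SE 0.07), PDIA4 (1.58, SE 0.03), HSPA5 (1.34, SE 0.04) and CRELD2 (1.15, SE 0.05). HERPUD1, a membrane protein of the degradation complex, was lower in BT549 by a log2 difference of -1.19 (SE 0.05). DNAJB9 was the gene without a call there (0.14, SE 0.09, adjusted p = 0.157), and its libraries overlapped. SUM159 had the highest XBP1, HSP90B1 and HERPUD1 of the 3 controls, and its HSPA5 was below that of MDA-MB-231, a log2 difference of 0.77 (SE 0.04) in favour of MDA-MB-231. The median log2 difference of the 10 genes was 0.88 for BT549 against MDA-MB-231 and 0.59 against SUM159, beside -0.03 and -0.06 over all genes tested. With library sizes alone in place of TMM, the median of all genes moved to -0.34 and -0.27 in these contrasts, and that of the members to 0.56 and 0.37. Over all genes the calls then split into 5099 higher and 8196 lower against MDA-MB-231 (6463 and 6689 with TMM) and 5322 and 7787 against SUM159 (6239 and 6732).

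**Figure D1:**
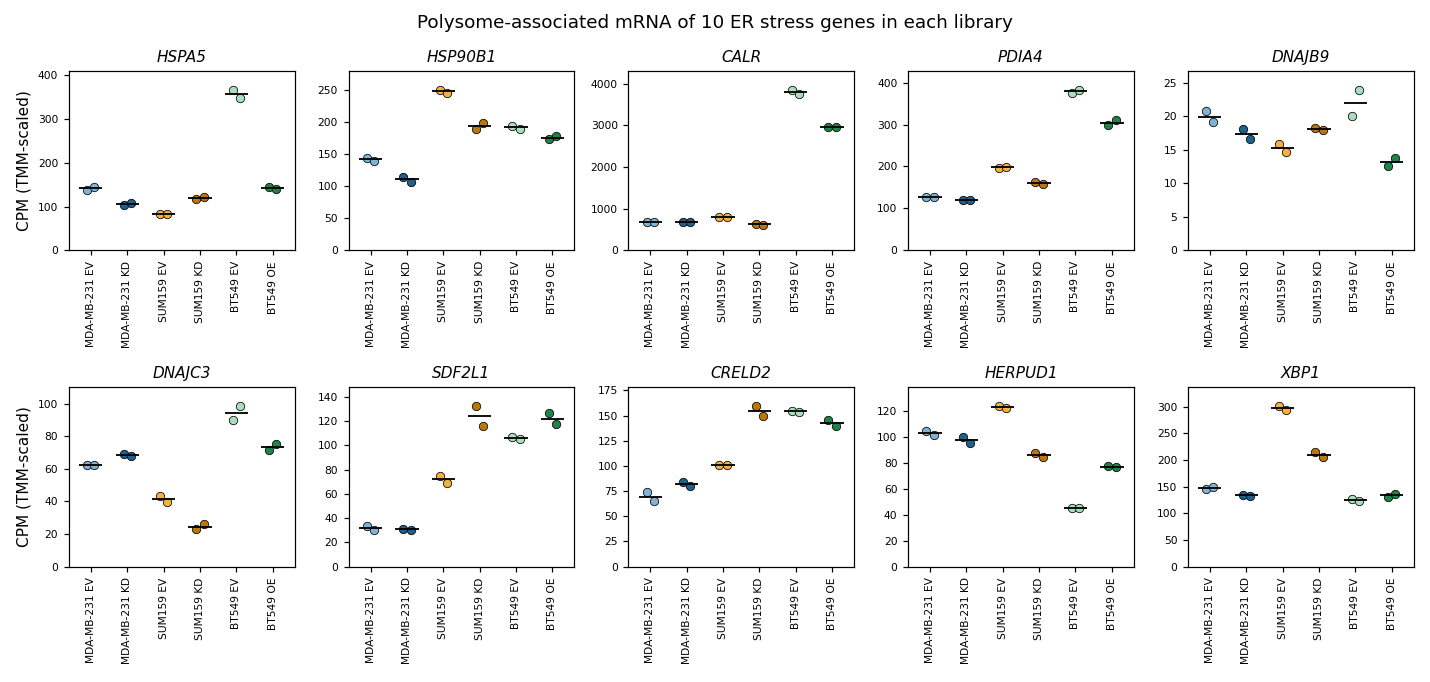
CPM (TMM-scaled, axis from 0) of the 10 genes, 1 panel a gene, in the 6 groups. Points are the 2 libraries of a group and bars their mean. HSPA5 falls from 358.0 to 142.4 CPM between BT549 EV and OE, while HERPUD1 moves from 45.3 to 77.3 CPM.

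TRMT112 knockdown in MDA-MB-231 went with lower HSPA5, HSP90B1 and XBP1 and higher CRELD2 on polysomes. Of the 10 genes, 3 were called lower (16.5% of all genes were) and 1 higher (21.2% of all genes), and 6 were not called. These counts are not far from the background shares. HSPA5, the ER Hsp70 and master chaperone of the UPR, was 138.2 and 145.1 CPM in EV and 103.9 and 107.4 CPM in KD. HSP90B1 (GRP94), the ER Hsp90, was 144.8 and 139.7 CPM in EV and 115.0 and 107.2 CPM in KD. For both genes each KD library lay under each EV library, with log2 fold changes of -0.42 (SE 0.04, adjusted p = 1.59e-08) and -0.36 (SE 0.04, adjusted p = 1.69e-07). XBP1, the substrate of IRE1, went from 145.6 and 148.8 CPM to 134.7 and 133.3 CPM (log2 fold change -0.14, SE 0.04, adjusted p = 0.00473), again without overlap. CRELD2, a secreted ER disulfide isomerase, moved up from 74.1 and 64.7 CPM to 84.0 and 79.8 CPM (log2 fold change 0.24, SE 0.05, adjusted p = 0.000916). Its EV libraries were the more spread of the groups. Without EV replicate 2, the calls of XBP1 (adjusted p = 0.0625) and CRELD2 (adjusted p = 0.0514) were lost and 2 genes remained called.

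For the other 6 genes the MDA-MB-231 changes were 0.20 or less on the log2 scale. CALR had 673.6 and 678.2 CPM in EV and 671.3 and 678.9 in KD, which overlapped (log2 fold change -0.00, SE 0.02, adjusted p = 0.996). SDF2L1 overlapped too. PDIA4, a disulfide isomerase, missed the threshold at a log2 fold change of -0.09 (SE 0.04, adjusted p = 0.0553) although its KD libraries were both lower. The edgeR test called PDIA4 lower under several alternatives. Among them were library sizes alone (adjusted p = 0.000307), the filter at a mean of 50 counts (0.0214), the line fitted alone (0.0287) and the replicate block (0.0439). Its log2 fold change was -0.086 without SUM159 KD replicate 1 and -0.088 without SUM159 KD replicate 2. DNAJC3 was higher in both KD libraries by 0.14 (SE 0.06, adjusted p = 0.0636), and was called higher with RLE size factors (adjusted p = 0.031), no filter (0.0314), the line fitted alone (0.0338), DESeq2 (0.0403) and without SUM159 KD replicate 1 (0.0495), and DNAJB9 and HERPUD1 were lower in both, with adjusted p of 0.108 and 0.126. The median log2 fold change of the 10 genes was -0.08, beside 0.00 over all genes tested. With library sizes alone, 8 of the 10 were called, and the median of all genes itself moved to -0.08, with 2363 genes higher and 4082 lower in place of 3505 and 2735.

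In SUM159 the same knockdown split the group. All 10 genes were called, 4 higher (28.6% of all genes) and 6 lower (31.4% of all genes). With the filter at a mean of 50 counts, which drops low-count genes, 4508 of 12590 genes were higher and 4714 lower. The EV and KD libraries of the 10 genes did not overlap. The share of all genes without overlap was not computed, so this is no result about these genes. The 4 that rose were HSPA5, SDF2L1, CRELD2 and DNAJB9. HSPA5 went from 83.0 and 83.8 CPM to 117.2 and 122.6 CPM, a log2 fold change of 0.53 (SE 0.04, adjusted p = 1.6e-10). SDF2L1, which keeps clients of HSPA5 and its J proteins soluble, went from 74.6 and 69.0 CPM to 132.1 and 116.1 CPM (log2 fold change 0.79, SE 0.06, adjusted p = 3.14e-11). CRELD2 went from 101.1 in both EV libraries to 159.2 and 149.4 CPM (0.61, SE 0.05, adjusted p = 1.36e-10). These 3 were well apart from their controls. DNAJB9 (ERdj4), a J protein that restrains IRE1, had 15.9 and 14.6 CPM in EV and 18.3 and 17.9 in KD, a log2 fold change of 0.25 (SE 0.10, adjusted p = 0.0309). That call was lost when SUM159 EV replicate 2 (adjusted p = 0.216), KD replicate 1 (0.109) or KD replicate 2 (0.0678) was left out, and with library sizes alone (0.0667).

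The 6 that fell in SUM159 KD included the genes with the highest counts. DNAJC3 (p58IPK), a co-chaperone that also binds PERK, had 43.3 and 39.7 CPM in EV and 23.1 and 25.9 CPM in KD, the largest decrease of the 10 (log2 fold change -0.75, SE 0.07, adjusted p = 1.46e-09). HERPUD1 went from 124.0 and 123.0 CPM to 87.5 and 85.0 CPM (-0.52, SE 0.04, adjusted p = 8.88e-11), and XBP1 from 300.5 and 293.1 CPM to 214.2 and 204.6 CPM (-0.50, SE 0.03, adjusted p = 6.01e-12). Each pair of KD libraries lay far below its controls relative to the gap within a pair. CALR went from 811.3 in both EV libraries to 625.1 and 620.5 CPM, a log2 fold change of -0.38 (SE 0.02). HSP90B1 went from 250 and 246.1 CPM to 189.8 and 197.9 CPM (-0.36, SE 0.04), and PDIA4 from 197.3 and 198.1 CPM to 162.7 and 157.3 CPM (-0.31, SE 0.03). Thus the ER Hsp70 rose and the ER Hsp90 fell in the same libraries. The median log2 fold change was -0.33, beside 0.00 over all genes tested, and it describes neither direction.

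The knockdown effects of the 2 lines were compared in the same model. The difference (MDA-MB-231 minus SUM159) was called for 9 of the 10 genes, beside 50.9% of all genes. With the filter at a mean of 50 counts, which drops low-count genes, 4164 of 12590 genes were called higher and 3836 lower. HSPA5 was called in opposite directions in the lines, with a difference of -0.95 (SE 0.06, adjusted p = 3.1e-12). For SDF2L1 the difference was -0.85 (SE 0.10, adjusted p = 7.14e-08) and for DNAJC3 0.89 (SE 0.09, adjusted p = 1.19e-08), each called in SUM159 and not in MDA-MB-231, although DNAJC3 was called in opposite directions under the 5 alternatives that called it higher in MDA-MB-231. CRELD2 was called higher and XBP1 lower in both lines, with larger effects in SUM159 (differences -0.37, SE 0.07, and 0.37, SE 0.05). HSP90B1 alone gave no call, with log2 fold changes of -0.36 in each line and a difference of -0.00 (SE 0.05, adjusted p = 1.0). TRMT112 itself fell by 1.23 on the log2 scale in MDA-MB-231 and fell by 0.76 in SUM159.

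**Figure D2:**
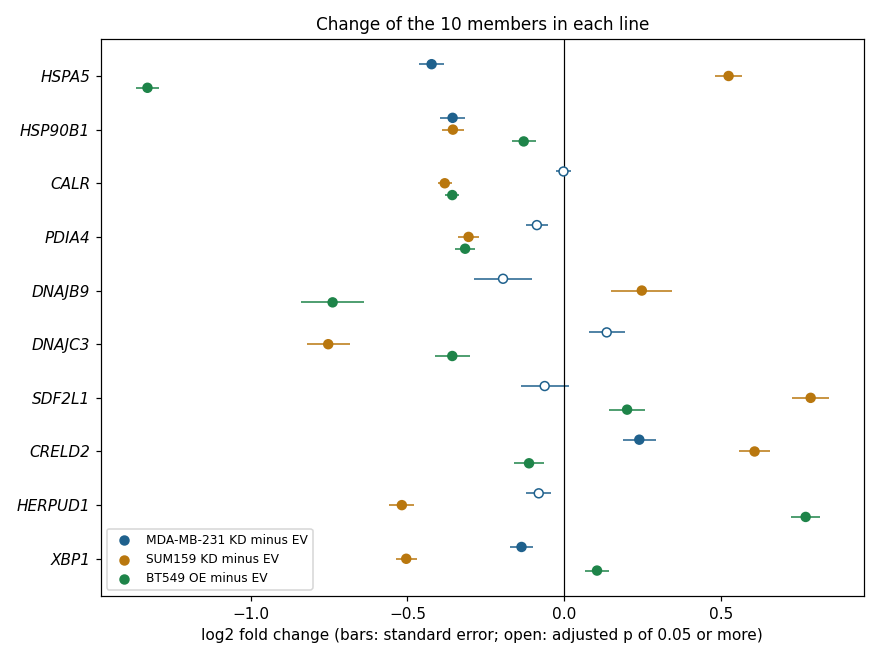
Log2 fold change (x axis) of the 10 genes (y axis) in MDA-MB-231 KD, SUM159 KD and BT549 OE against their EV controls; bars are standard errors and open points have an adjusted p of 0.05 or more. HSPA5 spans -1.33 in BT549 OE to 0.53 in SUM159 KD, and HERPUD1 -0.52 in SUM159 KD to 0.77 in BT549 OE.

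TRMT112 overexpression in BT549 was accompanied by the largest change of the group, in HSPA5. Its level was 366.7 and 349.3 CPM in EV and 145.0 and 139.8 CPM in OE. Both OE libraries were far under both EV libraries, a log2 fold change of -1.33 (SE 0.04, adjusted p = 2.93e-19). All 10 genes were called, 7 lower (35.0% of all genes) and 3 higher (35.6% of all genes). With the filter at a mean of 50 counts, 5010 of 12590 genes were lower and 5135 higher. The EV and OE libraries of the 10 genes did not overlap, but the share of all genes without overlap was not computed. DNAJB9 went from 20.1 and 23.9 CPM to 12.6 and 13.7 CPM (-0.74, SE 0.10, adjusted p = 5.94e-07). DNAJC3 went from 90.1 and 98.4 CPM to 71.7 and 75.4 CPM (-0.36, SE 0.06), CALR from 3847 and 3753 CPM to 2971 and 2962 CPM (-0.36, SE 0.02), and PDIA4 from 376.0 and 382.2 CPM to 299.4 and 309.6 CPM (-0.32, SE 0.03). HSP90B1 (194.4 and 189.8 against 173.3 and 178.2 CPM; -0.13, SE 0.04, adjusted p = 0.00457) and CRELD2 (154.9 and 153.7 against 146.0 and 139.6 CPM; -0.11, SE 0.05, adjusted p = 0.0422) changed least among those called lower. The CRELD2 call was lost without any 1 of BT549 EV replicate 1 (adjusted p = 0.109), EV replicate 2 (0.0727) or OE replicate 2 (0.219), and with library sizes alone (0.0799) or the filter at a mean of 50 counts (0.0962).

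The 3 that rose in BT549 OE were led by HERPUD1, from 45.4 and 45.2 CPM to 77.5 and 77.1 CPM (log2 fold change 0.77, SE 0.05, adjusted p = 6.49e-13). SDF2L1 went from 106.9 and 105.2 CPM to 126.4 and 117.5 CPM (0.20, SE 0.06, adjusted p = 0.00318). XBP1 went from 125.9 and 122.9 CPM to 131.3 and 136.4 CPM (0.11, SE 0.04, adjusted p = 0.0176). The HERPUD1 libraries were well separated and close within each group, while those of XBP1 were nearly adjacent. Without BT549 OE replicate 1 the SDF2L1 call was lost (adjusted p = 0.0756), and the XBP1 call was lost without EV replicate 2 (0.153), without OE replicate 2 (0.175) and with the line fitted alone (0.0521). The median log2 fold change was -0.22, beside 0.02 over all genes tested. SDF2L1 and HERPUD1, the genes with an ERSE-II, rose together here and went apart in SUM159. Of the 5 with an ERSE, 4 fell and XBP1 rose in BT549 OE, while in SUM159 KD HSPA5 and CRELD2 rose and the other 3 fell. DNAJB9, DNAJC3 and PDIA4, whose windows held neither element with the letters searched, also fell in BT549 OE. In SUM159 KD DNAJB9 rose while DNAJC3 and PDIA4 fell. In MDA-MB-231 KD HSPA5, HSP90B1 and XBP1 were called lower and CRELD2 higher, and the other members were not called. Of all genes, 35.0%, 31.4% and 16.5% were called lower and 35.6%, 28.6% and 21.2% higher in BT549 OE, SUM159 KD and MDA-MB-231 KD. Any part of the elements was not tested.

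Ordered by mean CPM, HSPA5 was highest in BT549 EV (358.0 ± 12.3, SD, n = 2), followed by BT549 OE (142.4 ± 3.69), MDA-MB-231 EV (141.6 ± 4.94), SUM159 KD (119.9 ± 3.8), MDA-MB-231 KD (105.7 ± 2.49) and SUM159 EV (83.4 ± 0.543). BT549 OE and MDA-MB-231 EV did not differ beyond their spread, and the other neighbours did not overlap. HERPUD1 had the reverse ends, with SUM159 EV highest (123.5 ± 0.731) and BT549 EV lowest (45.3 ± 0.194), and no neighbours in its order overlapped. XBP1 was highest in SUM159 EV (296.8 ± 5.26) and lowest in BT549 EV (124.4 ± 2.17), and MDA-MB-231 KD and BT549 OE overlapped. SDF2L1 was highest in SUM159 KD (124.1 ± 11.3) and BT549 OE (121.9 ± 6.29), which overlapped, and lowest in MDA-MB-231 EV and KD (32 ± 2.32 and 30.7 ± 0.798), which also overlapped. CRELD2 had a mean of 154.3 CPM in both SUM159 KD and BT549 EV. The members summed to 1729 and 1697 CPM in SUM159 KD and 4154 and 4149 CPM in BT549 OE, both under their controls, and to 1447 and 1436 CPM in MDA-MB-231 KD.

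Sums per symbol can hide shifts between transcripts, so the transcripts were also tested as listed. The transcript with the highest count of each member was called lower for 6 and higher for 3 of the 10 in SUM159 KD (12.5% of all transcripts were called in either direction). In BT549 OE, 4 were called lower and 1 higher (21.4% of transcripts). In MDA-MB-231 KD the edgeR test called 0 of the 10 (3.5% of transcripts), with 4 at an unadjusted p under 0.05. Some transcripts named next were chosen after their values were seen. HSPA5 was held mainly by HSPA5-201 and HSPA5-204. Their annotated lengths are 3921 and 2231 bases, of which 1742 and 106 bases follow the coding part. HSPA5-204 made up 49.5% and 46.3% of HSPA5 in BT549 EV and 28.3% and 27.7% in OE. In the other lines its share lay between 38.6% and 53.9%, so the BT549 OE libraries had the lowest shares of the 12. HSPA5-204 fell more than HSPA5-201 in BT549 OE, with log2 fold changes of -2.10 (SE 0.11, adjusted p = 2.27e-07) and -0.89 (SE 0.11, adjusted p = 0.000171).

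HSP90B1 also changed in makeup in BT549 OE. HSP90B1-201, the main coding transcript, made up 75.3% and 79.7% of the gene in EV and 57.5% and 58.1% in OE, and fell by 0.55 on the log2 scale (SE 0.08, adjusted p = 0.000665), more than the -0.13 of the summed gene. HSP90B1-230, annotated as a target of nonsense-mediated decay, rose by 1.93 (SE 0.47, adjusted p = 0.0139), and the coding HSP90B1-218 rose by 2.29 (SE 0.31, adjusted p = 0.000379). PDIA4-201 made up 22.7% and 22.6% of PDIA4 in BT549 EV and 14.0% and 10.8% in OE. The division of shared reads between transcripts of a gene is the estimate of the deposited values, and its error is not given in the sources used here. Where genes overlap, the strand setting matters and is not stated. UQCC6 lies on the strand opposite HSP90B1, with at most 319 counts, and ALG12 opposite CRELD2, with at most 2211 counts, whereas the processed copies HSPA5P1, HSP90B2P and XBP1P1 held at most 8 counts.

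**Figure D3:**
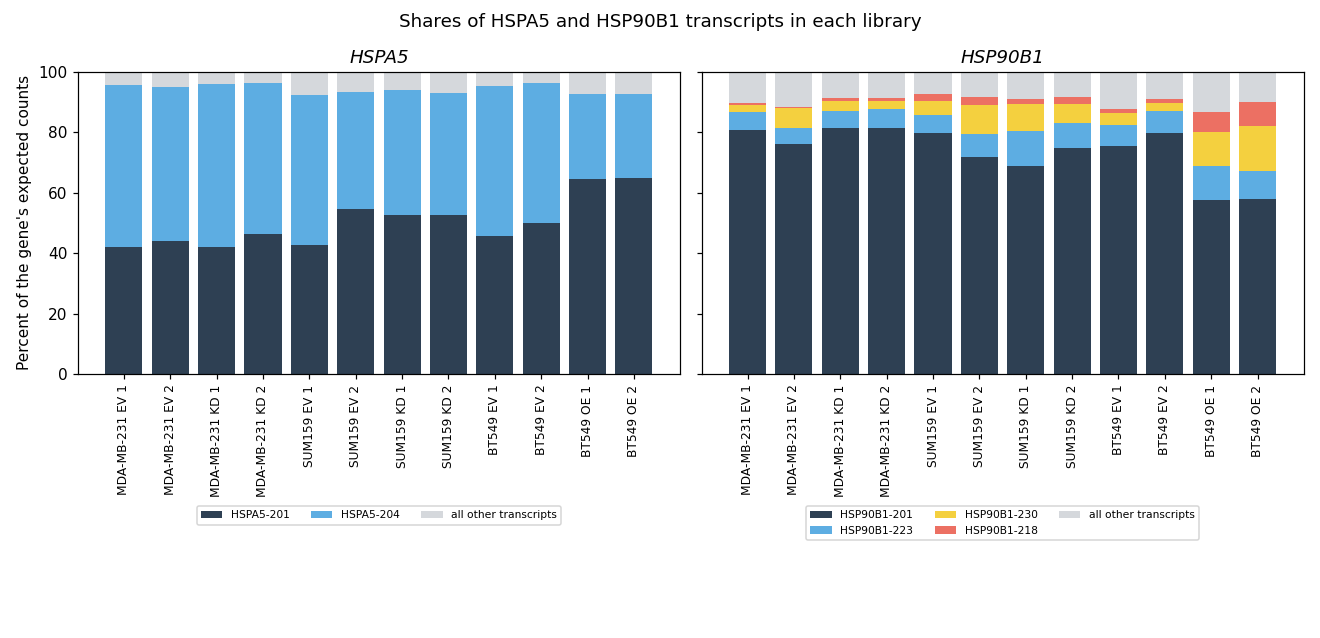
Percent of each gene's expected counts (y axis, 0 to 100) by transcript in the 12 libraries for HSPA5 (left) and HSP90B1 (right). The BT549 OE libraries have 28.3% and 27.7% HSPA5-204, the lowest of the 12, and 57.5% and 58.1% HSP90B1-201.

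With the 26 bases that IRE1 removes, the coding part of XBP1 has 261 codons, and without them, in XBP1-202, it has 376. XBP1-201, the unspliced form, held between 96.9% and 99.7% of the expected counts of XBP1 in each library, and XBP1-203 at most 1.95%. The spliced XBP1-202 had at most 0.14 expected counts in any library. An aligner that looks for introns of usual length and splice sites can miss this splice. Whether that happened here was not tested, and the ratio of spliced to unspliced XBP1 was not read from these values.

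The sensors themselves moved apart from one another. EIF2AK3 (PERK) was called higher in each line, with log2 fold changes of 0.29 (SE 0.07) in MDA-MB-231 KD, 0.64 (SE 0.07) in SUM159 KD and 0.33 (SE 0.10) in BT549 OE. The BT549 call was lost without EV replicate 1 (adjusted p = 0.0884). ATF6 was called lower in each, by -0.20 (SE 0.07), -1.38 (SE 0.08) and -0.85 (SE 0.08). Its MDA-MB-231 call was lost without EV replicate 1 (adjusted p = 0.0755), EV replicate 2 (0.128) or KD replicate 1 (0.372) and with DESeq2 (0.0693). ERN1 (IRE1) had -0.22 (SE 0.09, adjusted p = 0.0536) in MDA-MB-231 KD, and was called lower in SUM159 KD (-1.18, SE 0.10) and BT549 OE (-0.37, SE 0.14). The BT549 call was lost without any 1 of the 4 BT549 libraries (adjusted p from 0.0502 to 0.0839) and with the line fitted alone (0.0583), and in MDA-MB-231 KD ERN1 was called lower under 4 alternatives, with library sizes alone among them (0.00742). ATF4 was not called in MDA-MB-231 KD (-0.05, SE 0.03, adjusted p = 0.192), except with library sizes alone (0.000203) and with the line fitted alone (0.0472), and was lower in SUM159 KD (-1.01, SE 0.03) and BT549 OE (-0.74, SE 0.03). DDIT3, the proapoptotic factor CHOP, fell in all 3. Its level was 35.1 and 33.0 CPM in MDA-MB-231 EV against 14.9 and 16.6 in KD, 36.0 and 37.5 in SUM159 EV against 9.19 and 9.15 in KD, and 30.9 and 31.2 in BT549 EV against 16.5 and 18.1 in OE. So DDIT3 was lower whether TRMT112 was reduced or raised, with log2 fold changes of -1.11 (SE 0.08), -2.00 (SE 0.08) and -0.84 (SE 0.08). In the list of 14 sensors and transcription factors, 2 were lower and 6 higher in MDA-MB-231 KD, 10 lower and 4 higher in SUM159 KD, and 10 lower and 2 higher in BT549 OE. With library sizes alone, the MDA-MB-231 counts turned to 5 lower and 4 higher. Of all genes, 16.5%, 31.4% and 35.0% were called lower and 21.2%, 28.6% and 35.6% higher in these comparisons. ATF6B rose in MDA-MB-231 KD (0.33, SE 0.05). CREB3L1, an ER-anchored factor of secretory cells, rose in SUM159 KD (0.91, SE 0.03) and dropped in BT549 OE from 156.0 and 153.6 CPM to 6.99 and 5.59 CPM (-4.62, SE 0.06), where CREB3 also fell (-1.01, SE 0.04).

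Genes listed as outputs of PERK and ATF4 were mostly lower. The list came from general knowledge, with earlier results of these data known, so its counts are a description. Whether each gene is an output of PERK or ATF4 in these lines was not tested. Of the 10 genes listed, 9 were called lower and 1 higher in each of the 3 comparisons. Their median log2 fold changes were -0.44 in MDA-MB-231 KD, -1.42 in SUM159 KD and -1.00 in BT549 OE. Over all genes tested, 16.5%, 31.4% and 35.0% were called lower, and the medians were 0.00, 0.00 and 0.02. The exceptions were PPP1R15B in MDA-MB-231 KD (0.36), VLDLR in SUM159 KD (1.83) and NUPR1 in BT549 OE (0.21), a call that was lost without BT549 EV replicate 2 and without OE replicate 1. Asparagine synthetase, ASNS, went from 106.0 and 116.6 CPM to 63.0 and 63.4 CPM in MDA-MB-231 KD (-0.82, SE 0.05) and from 147.7 and 154.0 CPM to 22.2 and 23.1 CPM in SUM159 KD (-2.73, SE 0.06). PPP1R15A (GADD34), which restores translation by dephosphorylating eIF2α, fell by 0.70 on the log2 scale in MDA-MB-231 KD (SE 0.03). DDIT4, an inhibitor of mTORC1, fell in SUM159 KD (-2.07, SE 0.03) and BT549 OE (-1.74, SE 0.03), as did SESN2 in BT549 OE (-1.71, SE 0.06). In MDA-MB-231, NUPR1 rested on 12 and 9 counts in EV and 2 and 3 in KD, and its call was lost without EV replicate 1 or KD replicate 1. Over all alternatives the number lower was 8 or 9 in MDA-MB-231 KD and 9 in each of the others.

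**Figure D4:**
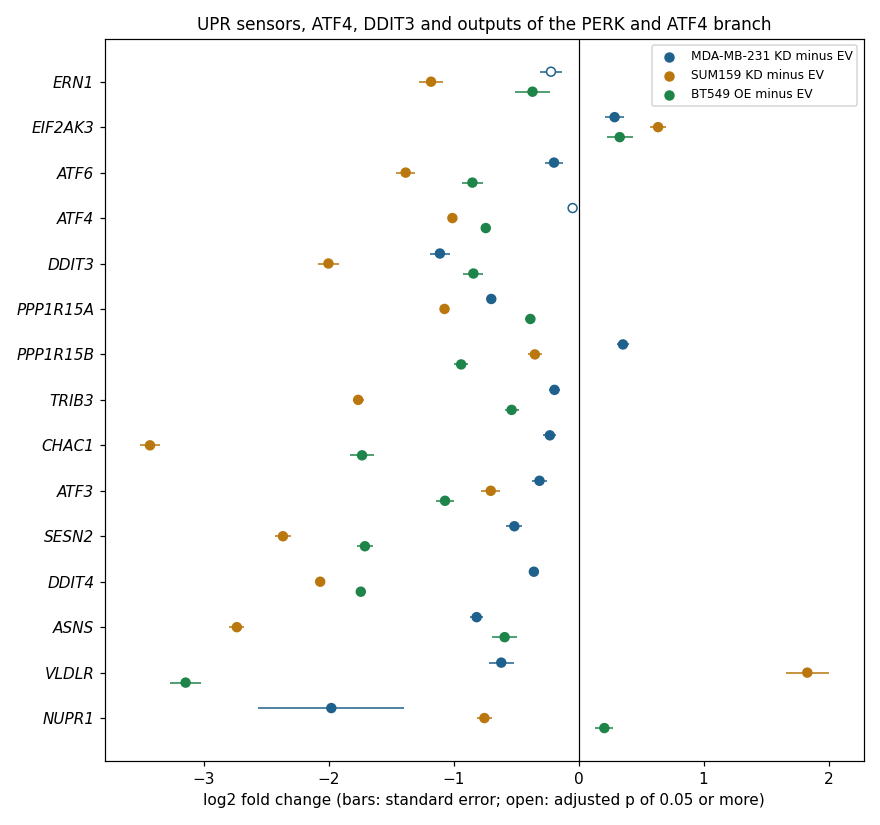
Log2 fold change (x axis) of the sensors, ATF4, DDIT3 and the 10 genes listed as PERK and ATF4 outputs (y axis) in the 3 comparisons with EV. Bars are standard errors and open points have an adjusted p of 0.05 or more. DDIT3 lies left of 0 in all 3, at -1.11, -2.00 and -0.84, and EIF2AK3 right of 0 at 0.29, 0.64 and 0.33.

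The other ER lists were mixed, and several counts are near the shares of all genes called, which were 21.2% higher and 16.5% lower in MDA-MB-231 KD, 28.6% and 31.4% in SUM159 KD, and 35.6% and 35.0% in BT549 OE. Among 22 further chaperones and folding enzymes, 5 were higher and 2 lower in MDA-MB-231 KD, 10 and 9 in SUM159 KD, and 12 and 8 in BT549 OE, with medians of 0.01, -0.06 and 0.12. P4HB, the main disulfide isomerase, rose in MDA-MB-231 KD (0.21, SE 0.03) and DNAJC10, a reductase with a J domain, fell there (-0.29, SE 0.05). In SUM159 KD, MANF, a secreted partner of HSPA5, rose (0.87, SE 0.03), while HYOU1, the nucleotide exchange factor of HSPA5, fell (-0.87, SE 0.04). PDIA3 (1.36, SE 0.03), the disulfide isomerase that works with CALR, rose in BT549 OE where CALR fell, and PDIA5 rose as well (1.30, SE 0.04). Of 18 genes of ER-associated degradation, the partners of HERPUD1, 8 were higher and 2 lower in MDA-MB-231 KD (EDEM1 0.43, SE 0.04; UBE2J1 0.34, SE 0.05), 7 and 8 in SUM159 KD (UBXN4 -0.80, SE 0.05; FAF2 -0.66, SE 0.04), and 5 and 10 in BT549 OE (EDEM3 -1.43, SE 0.06). Their medians were 0.12, -0.12 and -0.26. Of 23 genes of translocation and transport, 9 were higher and 5 lower in MDA-MB-231 KD (KDELR2 0.33, SE 0.03; SEC31A 0.45, SE 0.05), 15 and 5 in SUM159 KD (SRPRA 0.77, SE 0.03; SEC63 -0.97, SE 0.05), and 12 and 10 in BT549 OE (SEC11A 1.03, SE 0.04; SSR3 0.67, SE 0.03), with medians of 0.08, 0.23 and 0.14. The median over all genes tested was 0.00, 0.00 and 0.02 in the 3 comparisons. With library sizes alone, the further chaperones in MDA-MB-231 KD turned to 2 higher and 10 lower (median -0.08), the degradation genes to 5 and 6 (median 0.03), and the translocation genes to 5 and 7 (median -0.01). SEC63 carries the J domain that recruits HSPA5 to the translocon, and KDELR2 returns HSPA5 and other KDEL proteins to the ER.

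The genes were not alike in their pattern over the libraries. Pearson's r of each member with the mean of the 10 (centred log2 CPM, 12 libraries that fall into 3 lines) was 0.99 for PDIA4 and 0.91 for CALR, 0.70 for HSPA5, 0.00 for DNAJB9, -0.18 for XBP1 and -0.78 for HERPUD1. Outside the group, the 5 genes most like that mean were WASHC5 (r = 0.996), FMR1 (0.991), MACO1 (0.985), SFRP2 (0.985) and A4GALT (0.983). These values rest mostly on differences between lines. Within the 4 libraries of a line, many genes reach r near 1. The 5 highest were DMXL2, SNRPA, TNFRSF19, TRIR and UNC119B in MDA-MB-231, GGA1, RNF111, SAP130, RP9P and TACO1 in SUM159, and GNB4, KLHL8, SCP2, SLC25A24 and UBE2R2 in BT549, all with r of at least 0.999. In SUM159 HSPA5 had r = -0.92 with the mean of the 10 genes, in BT549 0.99, and in MDA-MB-231 0.855.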

How the data were processed

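Polysome-associated RNA of 12 libraries was analysed, in 6 groups that follow the sample labels. The methods and labels say that the authors used Trimmomatic for trimming, HISAT2 for alignment to GRCh38, and SAMtools to drop duplicates. How transcripts were counted, and with which annotation and strand, is not given in the sources used here, and the library kit is named differently in the methods (stranded total RNA) and the labels (poly(A) selection). Values in the deposited table are expected counts of Ensembl transcripts, not normalized, with a missing mark for 5.08% of transcripts in the MDA-MB-231 and SUM159 columns, recorded as another unit for that reason. Marks were taken as 0, and none of the 104 transcripts of the members held one. Transcripts were matched to GENCODE 44 without version numbers (79.6% of transcripts, at least 99.25% of the counts of a library), summed per symbol and rounded. Genes passing filterByExpr were given TMM factors and fitted in edgeR 4.0.16 (quasi-likelihood, group means of all 12 libraries, 6 residual degrees of freedom, common dispersion 0.000835), and called at an adjusted p (Benjamini-Hochberg) under 0.05. limma 3.58.1 was loaded with edgeR. R 4.3.3, Python 3.11.15, pandas 2.3.3, numpy 2.4.6 and matplotlib 3.10.9 were used. CPM were TMM-scaled with no prior, and log2 CPM used a prior count of 2. The edgeR test was tested on simulated counts.

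The members and lists were chosen with earlier results of these data known. Named are all 10 members, TRMT112, the markers, the highest-count transcript of each member, the sensors, ATF4 and DDIT3, the 2 called genes with the smallest p of each list in each of the 3 main comparisons, and the 5 genes most like the members' mean (among genes averaging 50 counts or more). The alternatives changed the test (DESeq2 1.42.0, Wald), the scaling (RLE, or library sizes alone), the filter (none, or means of 50 counts and above) or the model (replicate block, lines fitted alone), or used the table without marked transcripts, single transcripts, a minimum log2 fold change of 1, and leaving out each library in turn. ESR1 was not analysed here, and 1 gene that the naming rule selects is not reported here.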

Additional observations from a re-analysis of the deposited data

Results flagged for a closer look

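The knockdown effect differed between MDA-MB-231 and SUM159, by the test of the difference within the edgeR model, for 9 of the 10 genes, beside 50.9% of all genes tested. With the filter at a mean of 50 counts, 4164 of 12590 genes were called higher and 3836 lower in that test. The difference on the log2 scale, MDA-MB-231 minus SUM159, was -0.95 for HSPA5, -0.85 for SDF2L1, -0.44 for DNAJB9 and -0.37 for CRELD2. It was 0.89 for DNAJC3, 0.44 for HERPUD1, 0.38 for CALR, 0.37 for XBP1 and 0.22 for PDIA4. Groups of 2 libraries were too small to look for a library far from the others. The keratins did not move together: KRT8 rose by 0.79 in SUM159 KD and by 0.26 in MDA-MB-231 KD, while KRT18 fell by 0.13 in SUM159 KD and rose by 0.15 in MDA-MB-231 KD. Their part in these differences was not tested.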

How the results depend on the processing

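With 2 libraries a group, leaving one out assumes that the lone library varies like the other groups. The number of members called was 4 in MDA-MB-231 KD and became 8 with library sizes alone. Leaving out each library in turn gave 2 to 6 there, 9 to 10 in SUM159 KD and 8 to 10 in BT549 OE. The 2 came without MDA-MB-231 EV replicate 2. Requiring in addition a log2 fold change of at least 1 left 0 members in MDA-MB-231 KD, SUM159 KD and the difference of the KD effects, where the largest changes were 0.42, 0.79 and 0.95 (edgeR, 0 also at an unadjusted p under 0.05 and with DESeq2), 1 in BT549 OE, 2 between MDA-MB-231 EV and SUM159 EV, and 5 between BT549 EV and SUM159 EV. Testing the highest-count transcripts as listed gave 0 and 5 calls where sums per symbol gave 4 in MDA-MB-231 KD and 10 in BT549 OE.

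Values that changed sign were all uncalled. CALR in MDA-MB-231 KD was 0.019 with RLE size factors and with DESeq2, 0.009 with no filter, and -0.009 to 0.008 when each library was left out. SDF2L1 there ranged from -0.131 to 0.011 when each library was left out. The HSP90B1 difference of the KD effects was 0.021 with no filter and -0.047 to 0.055 when each library was left out. DNAJB9 in BT549 EV against MDA-MB-231 EV was -0.17 with library sizes alone. Of the other alternatives for single members, 1314 kept their direction and side of the threshold, 15 passed it and 15 missed it. Medians of the members kept their sign, between -0.17 and -0.06 in MDA-MB-231 KD, -0.37 and -0.28 in SUM159 KD, and -0.25 and -0.20 in BT549 OE. The alternatives on the PERK and ATF4 genes and on the sensors were chosen after seeing the data. Causes were not tested.

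Same-numbered libraries of a line did not deviate together (correlations 0.02, -0.03 and 0.00), so no pairing by number was seen. These values cannot tell whether such libraries were grown or processed together, because handling need not leave a shared deviation. With the replicate block, PDIA4 was called lower in MDA-MB-231 KD (-0.09, adjusted p = 0.0439). Genes called over all were 3508 higher and 2709 lower in MDA-MB-231 KD under the block, beside 3505 and 2735.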
